A study of Mus musculus with 8 samples.

Results

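The organic anion transporting polypeptides (SLCO genes) and the organic anion, cation and zwitterion carriers (SLC22 genes) were examined in mouse livers lacking Usp39 in hepatocytes. Every gene whose symbol began with Slco or Slc22a followed by a number was taken from the deposited expression table, without Slco1a1 and Slc22a5, which gave 39 genes (14 SLCO and 25 SLC22) of 55385 gene identifiers. The livers came from male mice 5 weeks old, fasted for 16 h, with 4 mice labelled WT in the Control group (A468, A472, A473 and A475) and 4 Usp39-HKO mice (A469, A470, A471 and A474). Usp39-HKO mice carried floxed Usp39 alleles (Usp39 fl/fl) and Cre under the albumin promoter, which acts in hepatocytes, so Kupffer, stellate and endothelial cells of the same liver were not the target of the deletion. The controls were littermates, whose own alleles and Cre status the labels do not give beyond WT. One library was made from whole liver RNA of each mouse.

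Both families sit in the cell membrane and carry small molecules into cells. On the blood-facing side of the hepatocyte, SLCO carriers take up bile acids, bilirubin, thyroid hormones and many drugs, and SLC22 carriers take up organic cations, zwitterions or anions such as urate and nucleotide metabolites. Members have different homes: some are typical of liver, others of kidney, testis, brain or olfactory epithelium. In mouse liver several members differ between the sexes.

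Libraries held 8589636 to 10418450 counts, with no difference between the groups (exact permutation test, two-sided, p = 0.657). A count of 3, the limit that a count of 0 allows, was 0.288 to 0.349 CPM (counts scaled to library size), and such limits cover counting error only. Usp39 itself was 9.35, 10.4, 8.76 and 9.78 FPKM (fragments per kilobase of exon, scaled to library size) in Control mice A468, A472, A473 and A475 and 8.37, 8.63, 8.70 and 8.07 FPKM in Usp39-HKO mice A469, A470, A471 and A474. The groups did not overlap, and the log2 fold change was -0.41 (SE 0.11, edgeR adjusted p = 0.0212). The counts cover all exons of Usp39, those outside the floxed part included, and cells without Cre, so the size of this change does not measure the deletion. Control A475 stood apart by pancreas acinar genes, whose summed level was 494 FPKM in it, 0.405 to 0.687 FPKM in the other controls and 0.867 to 2.45 FPKM in Usp39-HKO livers. Calls that needed A475 are named below.

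Slco1b2 had the highest Control mean of the members. It made up 35.9% to 44.9% of the summed FPKM of the 39 genes in Control livers, and 16.8% to 36.8% in Usp39-HKO livers. The summed FPKM was 531 ± 21.5 (SD, n = 4) in Control and 426 ± 54.8 (SD, n = 4) in Usp39-HKO livers. The ranges met, since Usp39-HKO A470 reached 506 and Control A475 only 501. After scaling with the TMM factors (trimmed mean of M values, which centre the bulk of genes between libraries), the sums were 577 ± 29.97 and 394 ± 59.8 and did not overlap. In the order of Control means, per kilobase, the members named here were Slco1b2 (211 FPKM), Slc22a18 (45.7), Slco1a4 (34.8), Slco2b1 (25.3), Slc22a23 (17.6), Slc22a30 (10.9), Slco2a1 (8.34) and Slc22a26 (6.61). Neighbours whose Control mice overlapped in level were Slc22a18 with Slco1a4 and Slc22a30 with Slco2a1 and Slc22a26, while the Control mice of Slco1b2 all lay above those of Slc22a18.

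**Figure D1:**
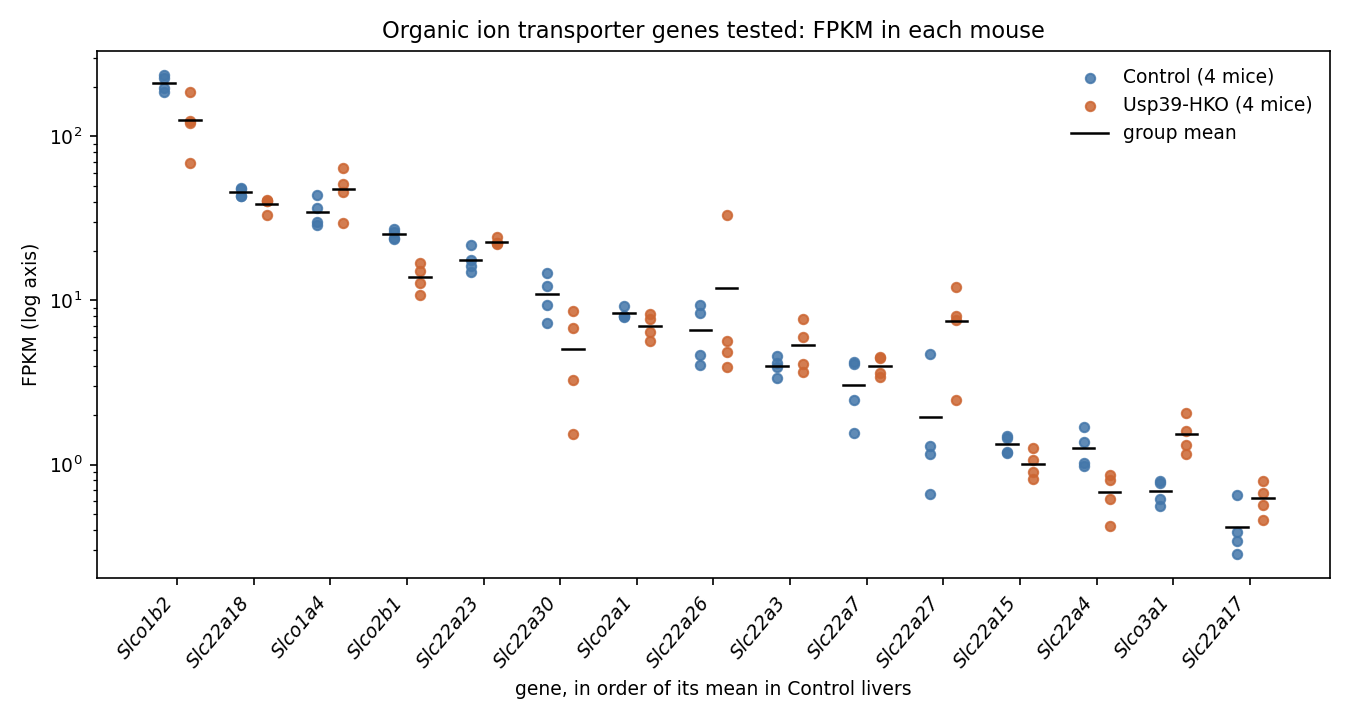
FPKM on a log axis (y) of 15 of the transporter genes tested (x, in order of the Control mean), with 1 point for each of 4 Control and 4 Usp39-HKO mice and a line at each group mean. Slco1b2 runs from 186 to 238 FPKM in Control livers and from 68.8 to 186 FPKM in Usp39-HKO livers, and Slc22a26 has a single Usp39-HKO mouse at 33.01 FPKM.

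A test of differences was run on genes with at least 0.5 FPKM in at least 4 of the 8 mice, which kept 14340 genes and 16 members (5 SLCO and 11 SLC22). All of these members except Slc22a4 and Slc22a17 reached that level in all 8 mice. At an adjusted p under 0.05 (edgeR quasi-likelihood test, Benjamini-Hochberg over all 14340 genes), 2 members rose and 7 fell in Usp39-HKO livers. Without Control A475, 1 was higher and 3 lower. Of all genes tested, 10.9% were called higher, 11.6% lower and 22.5% in either direction. Of the SLCO genes, 1 was higher and 3 lower, and of the SLC22 genes 1 was higher and 4 lower. The median log2 fold change was -0.16 over the members, -0.49 over the SLCO genes and 0.14 over the SLC22 genes, beside -0.0015 over all genes tested.

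The split between higher and lower calls depended on how libraries were scaled. With library totals alone, without TMM factors, 3 members were higher and 3 lower, and limma on log2(FPKM + 1) gave 3 higher and 2 lower. The median of all genes then lay at 0.23 (library totals) or 0.17 (FPKM), so these scales set the bulk of genes higher in Usp39-HKO livers. The TMM factors were 0.912 to 0.94 in Control and 1.01 to 1.19 in Usp39-HKO livers. TMM scaling therefore lowered Usp39-HKO values relative to Control values. Whether the bulk of genes was truly unchanged was not tested. Slco1b2, Slco2b1 and Slco3a1 were called in the same direction in every alternative run.

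**Figure D2:**
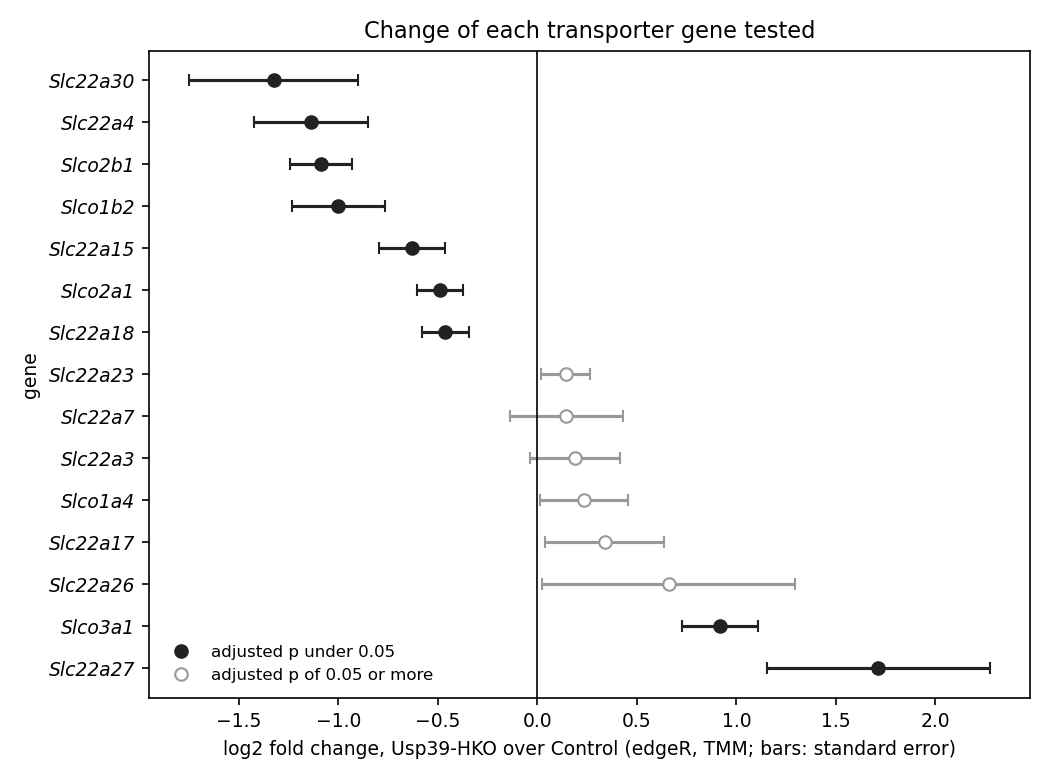
Log2 fold change from Control to Usp39-HKO livers (x; edgeR with TMM factors, bars are the standard error) of 15 of the transporter genes tested (y). Filled points passed an adjusted p of 0.05, and they run from -1.33 for Slc22a30 to 1.71 for Slc22a27.

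Slco1b2, a liver-specific carrier of bile acids, bilirubin and statins in the mouse, fell in Usp39-HKO livers. It measured 226, 196, 238 and 186 FPKM in Control A468, A472, A473 and A475. In Usp39-HKO A469, A470, A471 and A474 it measured 68.8, 186, 121 and 125 FPKM. A469 was lowest, while A470 lay just under the lowest control, so the groups were separated by a very small gap. The mean was 211 ± 24.4 FPKM (SD, n = 4) against 125 ± 47.9 FPKM (SD, n = 4), with a log2 fold change of -1.0 (SE 0.23, adjusted p = 0.0113 by edgeR). The same fit gave -0.79 without A469 (adjusted p = 0.0106) and -1.26 without A470 (adjusted p = 0.0028).

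Slco1a4, its neighbour in the same gene cluster, carries bile acids and drugs such as digoxin. It measured 30, 29, 36.6 and 43.8 FPKM in the Control mice and 64.6, 46.1, 29.5 and 51.6 FPKM in Usp39-HKO A469, A470, A471 and A474. The ranges overlapped, and the log2 fold change of 0.23 (SE 0.22, adjusted p = 0.484 by edgeR) did not pass the test. A469, the mouse with the least Slco1b2, had the most Slco1a4. Without A469 the log2 fold change of Slco1a4 was 0.029 (adjusted p = 0.929 by edgeR).

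The level of Slco1b2 relative to Slco1a4 does not depend on library scaling. This ratio was picked after the values were seen and was not tested. It was 7.52, 6.76, 6.51 and 4.25 in Control A468, A472, A473 and A475, and 1.07, 4.04, 4.11 and 2.42 in Usp39-HKO A469, A470, A471 and A474. All 4 Usp39-HKO ratios lay under all 4 Control ratios, with A475 the lowest of the controls.

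**Figure D3:**
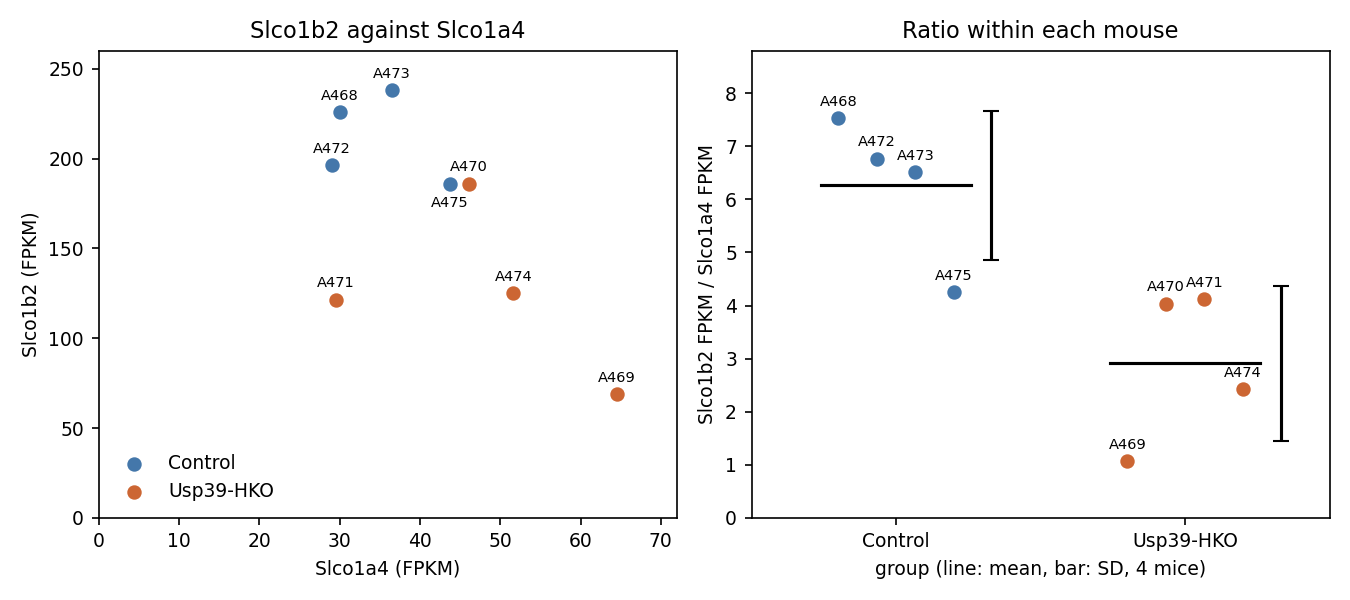
Left, Slco1b2 FPKM (y) against Slco1a4 FPKM (x) for each named mouse. Right, the ratio of the same values in each mouse, with the mean (line) and SD (bar) of 4 mice a group; the Control ratios are 4.25 to 7.52 and the Usp39-HKO ratios 1.07 to 4.11.

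Both genes lie on chromosome 6 (GRCm38), Slco1b2 at chr6:141629518-141686646 on the plus strand and Slco1a4 at chr6:141805440-141856199 on the minus strand. Their longest transcripts aligned over 1617 bases at 64.1% identity, so the reads of these genes can be told apart. The 200 bases before each start, from the RefSeq promoter table (GRCm38.p6), are shown because the ratio above compares these neighbours. Slco1b2 is chr6:141629318-141629517 (plus strand) and Slco1a4 is chr6:141856221-141856420 (minus strand, printed 5′ to 3′ toward the gene). No base is marked by capitals in this pair.
Slco1b2: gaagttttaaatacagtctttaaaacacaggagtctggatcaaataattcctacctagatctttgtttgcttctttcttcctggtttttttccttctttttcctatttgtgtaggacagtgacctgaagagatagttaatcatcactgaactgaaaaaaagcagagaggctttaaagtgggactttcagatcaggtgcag
Slco1a4: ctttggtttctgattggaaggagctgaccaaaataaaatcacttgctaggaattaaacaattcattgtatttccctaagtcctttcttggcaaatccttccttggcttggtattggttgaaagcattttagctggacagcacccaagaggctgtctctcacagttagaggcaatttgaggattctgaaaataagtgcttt

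In the 250 bases before the start, the letters TTCNNNGAA, the core of a STAT site that reads alike on both strands, were in 7 of the 38 windows of members (33 of the 39 genes had a RefSeq window, some more than 1) and in 7.02% of all 32851 windows. The 7 were Slco1b2, Slco2b1, Slc22a15, Slc22a26, Slc22a16, Slc22a19 and Slco1a5. Of these, Slc22a16, Slc22a19 and Slco1a5 had 0 counts in every liver. Slco2b1 and Slco1a5 each matched in only 1 of their windows. The match of Slco1b2 begins ahead of its stretch printed above, which holds no full match. The motif was picked with the sequences in view. A match describes letters only.

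Slco2b1, a widely expressed carrier of steroid sulfates, fell in every Usp39-HKO liver. It measured 23.6, 24.2, 26.2 and 27.1 FPKM in Control A468, A472, A473 and A475 and 15.2, 16.9, 12.7 and 10.8 FPKM in Usp39-HKO A469, A470, A471 and A474. The groups were wide apart. Its log2 fold change was -1.09 (SE 0.15, adjusted p = 0.0012 by edgeR), from 25.3 ± 1.65 to 13.9 ± 2.70 FPKM (SD, n = 4 each). Exons of Slco2b1 overlap the opposite-strand genes Gm15635 and Gm34280 over 9.2% of their bases, and whether counting used strand was not given in the sources used here.

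Slco2a1, which takes up prostaglandins for their breakdown, measured 9.31, 7.88, 8.07 and 8.09 FPKM in the Control mice and 5.70, 8.27, 6.41 and 7.71 FPKM in Usp39-HKO A469, A470, A471 and A474. The FPKM ranges overlapped, but after TMM scaling each Usp39-HKO mouse fell under the lowest control. The log2 fold change of -0.49 (SE 0.11, adjusted p = 0.0114 by edgeR) was lost with library totals alone (-0.25, adjusted p = 0.165) and in limma on log2(FPKM + 1) (-0.23, adjusted p = 0.178).

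Slco3a1, a broadly expressed carrier of prostaglandins and thyroxine, rose from a low level. It measured 0.797, 0.774, 0.618 and 0.555 FPKM in the Control mice and 1.17, 1.32, 1.61 and 2.07 FPKM in Usp39-HKO A469, A470, A471 and A474, with no overlap. This was a log2 fold change of 0.92 (SE 0.19, adjusted p = 0.0069 by edgeR). Slco3a1 was the only SLCO member called higher in Usp39-HKO livers.

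Markers of some other cell types also differed between the groups. The summed FPKM of 6 cholangiocyte markers was 26.5 to 28.7 in Control and 64.2 to 286 in Usp39-HKO livers. Most of that sum was Spp1, with means of 24.2 FPKM in Control and 147 FPKM in Usp39-HKO livers. The sums of 8 stellate markers were 67.5 to 78.1 and 113 to 245. Those of 7 Kupffer cell markers were 199 to 255 and 343 to 539. All 4 cholangiocyte markers tested, 7 of 8 stellate markers and 5 of 7 Kupffer markers were higher, whereas 7 endothelial markers summed to 99.1 to 111 and 105 to 109 FPKM with 2 lower. The 7 hepatocyte markers, Alb among them, summed to 17680 to 19200 and 15220 to 21210 FPKM, with Cyp2e1 and Cps1 lower. Erythroid markers were lower without overlap, at 139 to 284 FPKM in Control and 57.9 to 126 FPKM in Usp39-HKO livers, and both tested fell (Hba-a1 by 1.39 and Alas2 by 1.72 on the log2 scale). Of all genes tested, 10.9% were called higher and 11.6% lower. On deposited FPKM, 23.9% of single genes were higher and 4.81% lower without overlap. In whole liver, fewer cells of a type and less RNA per cell cannot be told apart, and the part of these cells in the transporter changes was not tested.

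Among the SLC22 genes, Slc22a18, an orphan member in an imprinted region, measured 47.8, 43.3, 43.1 and 48.5 FPKM in the Control mice and 40.8, 40.5, 40.5 and 33.3 FPKM in Usp39-HKO A469, A470, A471 and A474. A469, A470 and A471 nearly coincided and all lay below the controls. Slc22a18 changed by a log2 fold of -0.46 (SE 0.12, adjusted p = 0.0169 by edgeR), and without Control A475 it did not pass (adjusted p = 0.0538). With library totals alone it was -0.24 (adjusted p = 0.108), and limma on log2(FPKM + 1) gave -0.23 (adjusted p = 0.0996).

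Slc22a23, another orphan member, showed how the scale matters. It measured 17.6, 21.7, 16.2 and 14.9 FPKM in the Control mice and 22.4, 22.4, 22.2 and 24.5 FPKM in Usp39-HKO A469, A470, A471 and A474. On the deposited FPKM the groups did not overlap, and 23.9% of all genes were higher without overlap on that scale. With TMM factors they overlapped, and the log2 fold change was 0.14 (SE 0.12, adjusted p = 0.438 by edgeR). With library totals alone it was 0.38 (adjusted p = 0.0377).

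Without overlap on deposited FPKM were Slco3a1 and Slc22a23 (higher) and Slco1b2, Slc22a18, Slco2b1 and Slc22a4 (lower), beside 4.81% of all genes lower without overlap. After TMM scaling 1 member was higher without overlap (Slco3a1) and 7 lower, beside 11.9% and 12.9% of all genes. Slco2a1 and Slc22a15 were among those that then joined the members lower without overlap.

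Slc22a4, the ergothioneine carrier OCTN1, and Slc22a15, a carrier of zwitterions, were lower at low levels. Slc22a4 measured 0.981, 1.03, 1.37 and 1.69 FPKM in the Control mice and 0.806, 0.423, 0.616 and 0.868 FPKM in Usp39-HKO A469, A470, A471 and A474, with no overlap, and rested on 11 to 45 counts a library. Its log2 fold change was -1.14 (SE 0.29, adjusted p = 0.0166 by edgeR), and without Control A475 it was -0.97 (adjusted p = 0.061). In limma on log2(FPKM + 1), a scale that understates the change of low genes, it was -0.43 (adjusted p = 0.0505). Slc22a4 shares 25.4% of its transcript with the gene Gm12220, so its counts may include reads from that copy.

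Slc22a15 measured 1.499, 1.18, 1.19 and 1.46 FPKM in the Control mice and 1.26, 0.896, 0.817 and 1.06 FPKM in Usp39-HKO A469, A470, A471 and A474, and the ranges overlapped. Its change of -0.63 on the log2 scale (SE 0.17, adjusted p = 0.0196 by edgeR) lost its call without Control A468 (adjusted p = 0.061), Control A475 (0.0605), Usp39-HKO A471 (0.0545) or Usp39-HKO A474 (0.0516). It also lost it with library totals alone (-0.40, adjusted p = 0.0824) and in limma on log2(FPKM + 1) (-0.22, adjusted p = 0.175).

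The cluster of rodent organic anion carriers on chromosome 19 held members that moved in opposite directions. Slc22a26 (chr19:7781041-7802667), Slc22a27 (chr19:7864388-7966027), Slc22a28 (chr19:8062209-8131982), Slc22a29 (chr19:8160165-8218900) and Slc22a30 (chr19:8335371-8405111) are all on the minus strand of GRCm38. Transcripts of Slc22a27 and Slc22a29 aligned at 96.8% identity over 2088 bases, and those of Slc22a28 and Slc22a30 at 98.9% over 1485 bases. Reads can therefore be split between the genes of a pair, and single values of these genes are uncertain.

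The promoter stretches of this cluster are shown because of those pairs, each 200 bases before the RefSeq start on the minus strand: Slc22a27 at chr19:7966028-7966227, Slc22a29 at chr19:8218901-8219100, Slc22a28 at chr19:8131983-8132182 and Slc22a30 at chr19:8405106-8405305. Capitals in Slc22a29 and Slc22a28 mark the 22 and 5 of the printed bases that differ from Slc22a30 within their alignments. The alignment of Slc22a29 begins inside its printed stretch, and the bases ahead of it are in lower case because they were not aligned.
Slc22a30: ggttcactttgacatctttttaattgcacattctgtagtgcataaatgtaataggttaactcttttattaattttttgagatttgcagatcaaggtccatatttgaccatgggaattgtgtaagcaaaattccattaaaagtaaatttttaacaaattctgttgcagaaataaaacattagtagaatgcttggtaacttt
Slc22a28: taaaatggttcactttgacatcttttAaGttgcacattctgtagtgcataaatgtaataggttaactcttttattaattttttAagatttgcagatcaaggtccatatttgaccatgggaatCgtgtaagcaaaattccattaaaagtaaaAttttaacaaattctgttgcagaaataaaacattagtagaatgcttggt
Slc22a29: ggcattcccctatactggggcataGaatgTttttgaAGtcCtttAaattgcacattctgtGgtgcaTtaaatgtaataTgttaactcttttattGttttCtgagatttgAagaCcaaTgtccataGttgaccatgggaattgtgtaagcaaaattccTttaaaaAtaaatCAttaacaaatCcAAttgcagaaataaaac
Slc22a27: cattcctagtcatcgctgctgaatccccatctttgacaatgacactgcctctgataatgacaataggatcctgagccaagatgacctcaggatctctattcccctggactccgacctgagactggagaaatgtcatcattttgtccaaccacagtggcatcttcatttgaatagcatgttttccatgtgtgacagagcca
In the whole RefSeq windows of 300 bases Slc22a28 and Slc22a30 aligned at 98.0% identity over 294 bases, and Slc22a29 and Slc22a30 at 86.3% over 227 bases. Slc22a27 aligned to Slc22a29 over only 20 bases, although their transcripts are close copies.

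Slc22a27 measured 0.658, 4.69, 1.30 and 1.16 FPKM in Control A468, A472, A473 and A475 and 12.0, 7.66, 2.48 and 8.04 FPKM in Usp39-HKO A469, A470, A471 and A474. Control A472 lay above Usp39-HKO A471, so the groups overlapped. The log2 fold change was 1.71 (SE 0.56, adjusted p = 0.0473 by edgeR), just past the threshold. It kept its call without Control A472 (adjusted p = 0.006) or without Usp39-HKO A471 (0.0218), and lost it without any other mouse (adjusted p of 0.0758 to 0.13) and in DESeq2 (0.0667). The call was also lost in edgeR without the FPKM filter (adjusted p = 0.0515) and at a mean FPKM of at least 1 (0.0531). Its size rested in part on Control A472, without which the log2 fold change was 2.63, and it was 1.36 without Usp39-HKO A469.

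Slc22a30 measured 14.6, 12.3, 9.33 and 7.30 FPKM in the Control mice and 3.27, 8.68, 6.75 and 1.53 FPKM in Usp39-HKO A469, A470, A471 and A474. Usp39-HKO A470 lay above Control A475. The log2 fold change was -1.33 (SE 0.42, adjusted p = 0.043 by edgeR). It kept its call without Usp39-HKO A470 (adjusted p = 0.0188) or A474 (0.0487), and lost it without any other mouse (0.0514 to 0.114), in DESeq2 (0.0721), with library totals alone (0.0572) and in limma on log2(FPKM + 1) (0.0633). The call was also lost in edgeR at a mean FPKM of at least 1 (adjusted p = 0.0505) and in limma on log2(FPKM + 0.1) (0.0722). The log2 fold change was -1.71 without A470 and -1.01 without A474.

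Summing the counts of each near-identical pair before the fit, a choice made after seeing the data, gave nearly the same changes. Slc22a29 and Slc22a28 had few counts (given below), so the sums were mostly the counts of Slc22a27 and Slc22a30. The summed fits therefore had to lie near the single fits, and they are no separate support for the single values. Slc22a27 with Slc22a29 had a log2 fold change of 1.74 (SE 0.56, adjusted p = 0.0435 by edgeR), and Slc22a30 with Slc22a28 had -1.34 (SE 0.42, adjusted p = 0.0411). The first pair was 1.52, 10.6, 3.03 and 2.88 CPM in Control A468, A472, A473 and A475 and 27.8, 17.9, 5.45 and 19.9 in Usp39-HKO A469, A470, A471 and A474. The second was 50.4, 42.5, 32.0 and 25.8 and then 11.0, 29.4, 23.5 and 5.17. The pairs' ratio overlapped between the groups: it was 4.01 to 33.1 in Control livers and 0.259 to 4.31 in Usp39-HKO livers, where A469 and A474 were lowest.

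Slc22a26 measured 4.06, 9.37, 4.66 and 8.33 FPKM in the Control mice and 33.01, 4.82, 3.94 and 5.65 FPKM in Usp39-HKO A469, A470, A471 and A474. A469 alone was high, and the other Usp39-HKO mice lay within the control range or just under it. The log2 fold change of 0.66 (SE 0.63, adjusted p = 0.495 by edgeR) turned to -0.71 without A469 (adjusted p = 0.0765).

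**Figure D4:**
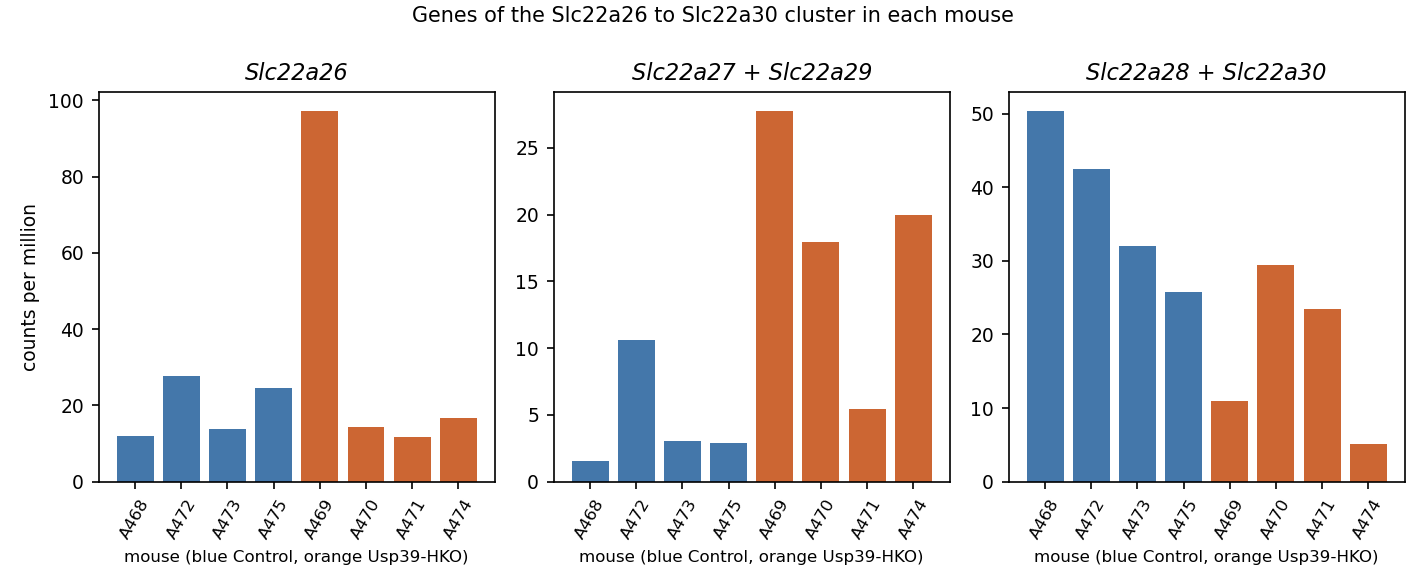
CPM (counts scaled to library size; y, bars from 0) in each mouse (x; blue Control, orange Usp39-HKO) of Slc22a26, of Slc22a27 summed with Slc22a29 and of Slc22a28 summed with Slc22a30; each panel has its own scale. The second panel reaches 27.8 in Usp39-HKO A469 and the third 50.4 in Control A468, while in the first A469 stands alone.

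A further 3 members tested did not pass. Slc22a3, the monoamine carrier OCT3, was 3.35 to 4.60 FPKM in Control and 3.67 to 7.71 FPKM in Usp39-HKO livers (log2 fold change 0.19, SE 0.22), and 9.31% of its exon bases overlap the opposite-strand plasminogen gene Plg. Slc22a7, the carrier OAT2 of nucleotide metabolites, was 1.55 to 4.20 and 3.41 to 4.53 FPKM (0.15, SE 0.28). Slc22a17, the receptor of lipocalin-2, was 0.284 to 0.648 and 0.456 to 0.794 FPKM (0.34, SE 0.30).

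The remaining 23 members (9 SLCO and 14 SLC22) were not tested, and their mean FPKM was at most 0.442. At 0 counts in all 8 livers were 9 genes, among them the testis genes Slco6c1 and Slco6d1, the kidney carrier Slc22a6 (OAT1) and the neighbours Slco1a5 and Slco1a6. A further 7 had 1 to 9 counts over the 8 livers, among them Slc22a2 (OCT2), Slc22a8 (OAT3) and Slc22a12 (URAT1) of the kidney. At least 10 counts over all livers were seen for 7 genes, with at most 35 in 1 mouse (Slc22a21 in Usp39-HKO A469). Kidney tubule markers were under 0.5 FPKM in every liver, and Slc12a1, Aqp2 and Kap were listed at 0.

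Fitted without the FPKM filter (19564 genes, 18.4% called), Slc22a28 had 39 counts over the 4 Control livers and 9 over the 4 Usp39-HKO livers, a log2 fold change of -2.32 (SE 0.73, adjusted p = 0.0454 by edgeR). Slc22a29 had 12 and 60 counts, a log2 fold change of 1.98 (SE 0.69, adjusted p = 0.0664). Each had the sign of the gene whose transcript it nearly shares. Reads of that gene could give the same sign, so this is no separate evidence.

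Other carriers of bile acids and organic ions, outside both families, were listed for comparison. Of 24 genes 21 were tested, 3 were higher and 9 lower, with a median log2 fold change of -0.39. Over all genes tested, 10.9% were higher and 11.6% lower. Slc10a1, the sodium-dependent bile acid uptake carrier NTCP, measured 383, 367, 425 and 407 FPKM in the Control mice and 260, 273, 198 and 221 FPKM in Usp39-HKO A469, A470, A471 and A474. Its groups were far apart (log2 fold change -0.96, SE 0.14, adjusted p = 0.0015 by edgeR). The exporter Abcb1a rose (1.74, SE 0.26), and Slc17a3, Abcc6 and Abcc3 fell (-1.41, -1.03 and -0.96).

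Of 15 transcription factors known to act on hepatic transporter genes, 1 was higher (Nfe2l2, 0.43) and 7 lower, with a median log2 fold change of -0.42. The shares over all genes tested were 10.9% higher and 11.6% lower. Nr1i3, the xenobiotic receptor CAR, changed most (-1.31, SE 0.16, adjusted p = 0.0008 by edgeR), followed by Ppara (-0.83), Cebpa (-0.67), Nr0b2 (-0.63) and Stat5b (-0.54). Hnf4a had a log2 fold change of -0.23 (adjusted p = 0.292 by edgeR).

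Genes that differ between male and female mouse livers were listed because several transporters do. Of 9 male-biased genes 6 were lower, with a median log2 fold change of -2.62 over the 9 (Hsd3b5 -3.47, Cyp4a12a -2.92, Elovl3 -2.82, Cyp7b1 -2.79 and Cyp2d9 -1.70 on the log2 scale). Mup20, Mup7 and Selenbp2 did not pass. Of 7 female-biased genes tested, Cyp3a41a (4.88) and Cyp3a44 (1.72) were higher and Fmo2 (-0.79) and Cyp4a10 (-0.61) lower. Beside these calls, 10.9% of all genes tested were higher and 11.6% lower. A471, the Usp39-HKO mouse with the lowest Slc22a27, had the most Cyp4a12a of its group, at 22.5 FPKM beside 0.610 to 5.75 FPKM in the other Usp39-HKO mice, and 30.1 to 81.4 FPKM in Control livers. The part of these genes in the transporter changes was not tested.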

How the data were processed

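Whole liver RNA of 4 Control and 4 Usp39-HKO mice was sequenced as paired reads. The authors trimmed reads (Trim Galore 0.6.1), checked them (FastQC 0.11.9), aligned them to mm10 (HISAT2), assigned them to genes (featureCounts) and deposited a single table with gene counts as counted, not normalized, for each mouse, and FPKM, which the authors computed from the counts, exon length and library total. It also holds columns of the authors' own comparison by DESeq2 (fold changes and p-values), which were not used. Of 55699 rows, 314 repeated a gene identifier and were left out. How multi-mapping reads and strand were treated is not given in the sources used here.

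Counts were fitted with edgeR 4.0.16 (quasi-likelihood, TMM; R 4.3.3) on 14340 genes with FPKM of at least 0.5 in 4 of 8 mice, with Benjamini-Hochberg adjustment. The standard error is the size of the log2 fold change divided by the root of F. Single values were compared by the exact permutation test over 70 assignments, whose smallest two-sided p is 0.029. DESeq2 1.42.0, limma 3.58.1, other scalings and filters and each mouse left out were alternatives. On simulated counts for the same comparison and 14340 genes, 86 of 100 genes changed by log2 1 and 100 of 100 changed by log2 2 were called, with 12 false calls. The changed genes were drawn only from those above a minimum mean count, so recovery of genes below it was not simulated. No other gene was changed, a smaller share than the 22.5% called in the data. Transcripts and coordinates came from GENCODE (GRCm38), compared with BLAST 2.17.0 and Biopython 1.88, and promoters from RefSeq. Pairs of libraries of a group differed beyond sampling noise (chi-square per degree of freedom 6.40 to 32.9), and each library was 1 mouse.

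The members, lists and motif were chosen with earlier results of these data known. Members with a mean of at least 5 FPKM or an adjusted p under 0.05 are given per mouse, others by range or counts, except that some items are not reported here, though they are within the counts, medians and sums; of the lists, at most 5 called genes by size are named. A gene that fails the test is given by its values, as are a few others picked after they were seen (Slc10a1 per mouse, Hnf4a, Nfe2l2 as the only factor called higher, Cyp4a12a per mouse, Slc22a28 and Slc22a29).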

Additional observations from a re-analysis of the deposited data

Results flagged for a closer look

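In groups of 4 mice, a mouse far from the other 3 was seen in 5 of 38 groups examined by Dixon's criterion, where chance gives about 5% of groups. These were Slc22a18 in Usp39-HKO A474 (33.3 FPKM, low), Slc22a23 in Usp39-HKO A474 (24.5 FPKM, high), Slco2a1 in Control A468 (9.31 FPKM, high), Slc22a26 in Usp39-HKO A469 (33.01 FPKM, high) and Slc22a27 in Control A472 (4.69 FPKM, high).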

How the results depend on the processing

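The controls were littermates, but no paired analysis was possible because the labels give no litter or pairing. Slco1b2, Slco2b1 and Slco3a1 kept their direction and their call in all 15 alternatives. Beside the 9 calls (2 higher and 7 lower), 1 member was higher under DESeq2, without the FPKM filter and at a mean FPKM of at least 1; 3 were lower with library totals alone; and limma with either pseudocount called 5, of which 2 were lower. Leaving out 1 mouse gave 4 to 8 calls (4 without Control A475), 1 to 2 higher and 3 to 7 lower. The median log2 fold change of the members was 0.071 with library totals alone and -0.44 to -0.090 with 1 mouse left out. Usp39 did not pass with library totals alone (-0.18) or with limma (-0.16 with a pseudocount of 1, -0.18 with 0.1), and was -0.45 to -0.35 with 1 mouse left out, without a call when Control A475 or Usp39-HKO A474 was left out (adjusted p by edgeR = 0.0547 and 0.0615). The summed FPKM differed by -105 (Usp39-HKO minus Control), by -183 after TMM scaling and by -132 to -90.1 with 1 mouse left out. Direction turned for Slc22a26 (-0.71) and Slc22a3 (-0.069) without Usp39-HKO A469 and for Slc22a7 (-0.066) without Control A473, with ranges over all mice left out of -0.71 to 0.95, -0.069 to 0.33 and -0.066 to 0.34, none of them called; the cause was not tested. Depth limits the members under 0.5 FPKM, and 4 mice a group limit small changes.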
